A study of Drosophila melanogaster with 2 samples.

Results

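The binding sites of the homeodomain protein CG15696 described here lay at promoters whose nearby transcription start sites (TSSs) all point the same way. They were taken from the 5354 sites that passed a threshold on the irreproducible discovery rate (IDR), which scores how well the ranking of peaks repeats from 1 replicate to another. A site was kept when its summit lay within 500 bp of a TSS of a protein-coding transcript and when every such TSS within 500 bp was on the same DNA strand. This left 1348 sites, which is 25.2% of the list (95% Wilson interval 24.0 to 26.4%) and 60.04% of the 2245 sites within 500 bp of a TSS. They are called non-divergent sites below. Another 897 sites had TSSs on both strands within 500 bp and are called divergent sites, of which 868 lay between genes that start back to back. The remaining 3109 sites lay farther from any TSS. The chromatin came from whole Drosophila melanogaster embryos of mixed sex, 2 to 8 h old. They carry a transgene for CG15696 with a C-terminal green fluorescent protein (GFP) tag, and an anti-GFP antibody pulled down the chromatin after sonication to 200 to 800 bp. The labels give 1 group with 2 biological replicates, numbered 3 and 1, and no group without the tagged protein. The embryos were pooled, so cells of all types contributed and no site can be placed in a cell type.

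CG15696 belongs to the NKL class of homeobox genes. Homeodomain proteins hold a helix in the major groove of DNA and often prefer short sites rich in A and T. Many act as switches of cell fate in the embryo, through enhancers and promoters. A promoter is the stretch around a TSS where RNA polymerase II and the general factors assemble, often kept free of nucleosomes just upstream of the TSS. In the compact fly genome many genes start back to back and share 1 stretch of upstream DNA, whereas a non-divergent promoter serves transcription in 1 direction. Known core elements of fly promoters include the TATA box, the initiator, the DREF site and motif 1, which differ in how often they occur at housekeeping and developmental genes.

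The label was checked against the annotation. The nearest TSS on the opposite strand was a median of 4208 bp from the summit. It lay over 5 kb away at 595 sites (44.1%) and over 500 and up to 1000 bp away at 176 sites (13.1%), so some of these promoters would count as divergent under a wider window. The 1348 sites had 1225 different nearest genes. Of these genes, 1118 had 1 site, 95 had 2, 9 had 3, 2 had 4 and 1 had 5. At 1101 sites there was a single TSS within 500 bp, and at 40 sites the TSSs belonged to 2 or more genes. A total of 92 sites (6.82%) had another non-divergent site within 500 bp, with summits at least 199 bp apart. Values of sites that share a promoter come in part from the same fragments. The signal is the value the authors gave each peak, on a scale that no source states. The read depth is unknown, so intervals here cover the number of sites only.

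The DNA under the strongest summits was rich in A and T. Shown first are 8 strong sites with summits upstream of the TSS, whose printed runs held between 12.2% and 39.0% G and C. Each run spans the summit by 20 bp on either side and is read 5′ to 3′ on the strand of the nearest gene, from the RefSeq sequence of Release 6 (dm6). Capitals mark runs of 6 or more A or T.
CG14100 (chr3L:19590599-19590639, minus strand): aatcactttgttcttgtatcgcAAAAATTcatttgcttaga
ph-p (chrX:2137310-2137350, minus strand): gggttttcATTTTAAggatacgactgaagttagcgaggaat
CG13921 (chr3L:1746739-1746779, plus strand): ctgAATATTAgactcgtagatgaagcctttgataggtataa
Ugalt (chrX:2703868-2703908, minus strand): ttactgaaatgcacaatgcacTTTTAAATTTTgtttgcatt
gish (chr3R:16280701-16280741, plus strand): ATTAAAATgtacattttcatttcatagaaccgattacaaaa
CG18549 (chr3R:12449143-12449183, plus strand): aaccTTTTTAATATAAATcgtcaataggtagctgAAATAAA
NimC4 (chr2L:14047364-14047404, plus strand): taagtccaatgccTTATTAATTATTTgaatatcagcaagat
RluA-1 (chr2L:10474530-10474570, minus strand): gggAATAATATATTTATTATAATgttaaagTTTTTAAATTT

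Next are the 4 strongest sites with summits downstream of the TSS, 1 per gene and leaving out the genes above, shown because this position was the less common one. Those of PNPase and CG10413 lie in the 5' UTR and are given with 14 bp on either side of the summit. These 4 were chosen after their values were seen.
CG43116 (chr3R:25996595-25996635, minus strand): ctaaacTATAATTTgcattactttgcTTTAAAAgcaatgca
PNPase (chr3R:31404648-31404676, minus strand): caagaaacgtacagggcTTTTATTgtaag
Ptp4E (chrX:4939962-4940002, plus strand): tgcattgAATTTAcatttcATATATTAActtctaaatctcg
CG10413 (chr2L:18605139-18605167, minus strand): ATTTATAAAgtctggggttatccgacccc

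The runs differed in composition and in the length of their A/T stretches. The sequence at RluA-1, a gene of the pseudouridine synthase family, held an unbroken A/T run of 20 bases, against runs of 7 bases at CG14100 and at CG13921. G and C made up 12.2% of the RluA-1 run and 39.0% of the ph-p run. To show where such stretches sit relative to the start, the 160 bases that end just before the TSS are given for the strongest site, at CG14100, and for CG18549, which was chosen after its values were seen. The summit is base 66 of the run of CG14100 and base 28 of that of CG18549.
CG14100 (chr3L:19590525-19590684, minus strand): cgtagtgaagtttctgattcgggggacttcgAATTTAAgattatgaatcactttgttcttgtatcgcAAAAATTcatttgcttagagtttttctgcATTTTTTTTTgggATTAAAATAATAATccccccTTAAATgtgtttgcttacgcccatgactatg
CG18549 (chr3R:12449136-12449295, plus strand): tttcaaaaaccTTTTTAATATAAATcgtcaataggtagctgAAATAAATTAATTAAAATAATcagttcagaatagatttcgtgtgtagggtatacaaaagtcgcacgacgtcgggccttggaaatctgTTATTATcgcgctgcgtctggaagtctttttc

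In the first of these stretches G and C made up 34.4% of the bases, and in the second 35%. The stretch of CG18549 held the hexamers TATAAA and TAATTA, and that of CG14100 held neither. A match of this kind describes the letters in the window and is not a tested binding site.

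Most non-divergent summits lay upstream of the start. Of the 1348 sites, 1137 (84.3%, interval 82.3 to 86.2%) were upstream of the nearest TSS and 211 (15.7%) were at it or downstream. Positions are given from the TSS along the gene, negative upstream. The median position was -150 bp, with quartiles of -260 and -70 bp. The fullest 50 bp bin, from -150 to -101, held 227 sites (16.8%), whereas the bin from 0 to 49 held 41 sites (3.04%). Among divergent sites 771 of 897 (86.0%) were upstream of the nearest TSS. The upstream shares differed by -1.61 percentage points, non-divergent minus divergent, which did not pass (Fisher's exact test over sites, two-sided, adjusted p = 0.306 over 4 shares compared). The sign of this small difference turned under 4 alternatives, and with a 1000 bp window it was -7.49 points (Fisher's exact test, adjusted p = 6.52e-06). The class of a site and its position both come from the TSSs around the summit. The rule and its window thus shape these shares, and the test cannot separate that from a difference in binding.

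**Figure D1:**
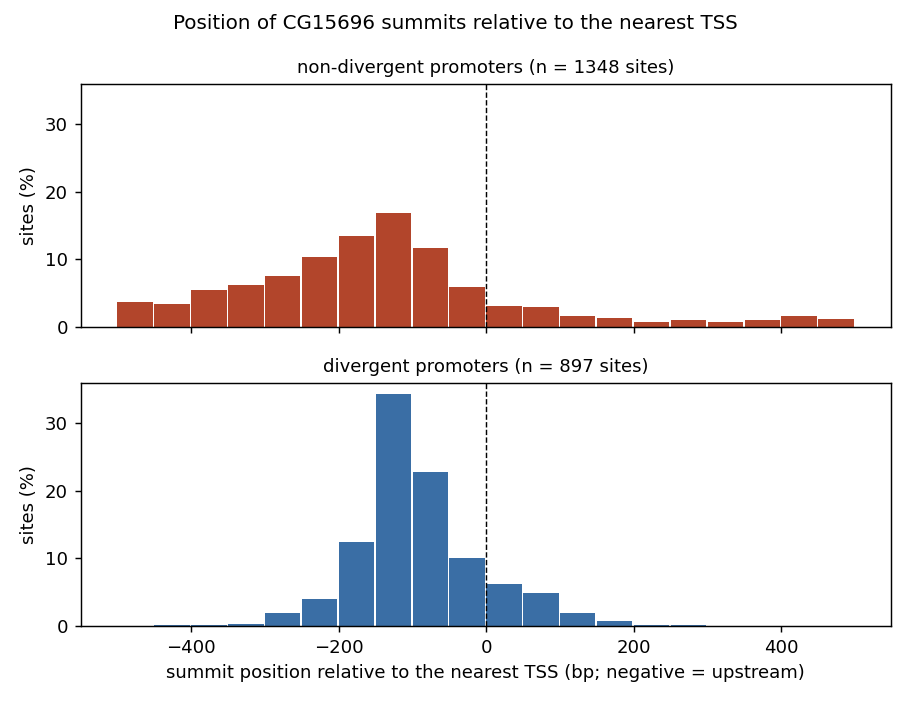
Summit position relative to the nearest TSS (x, bp, negative upstream) against the share of sites in each 50 bp bin (y, percent), for 1348 non-divergent and 897 divergent sites. The bin from -150 to -101 holds 16.8% of non-divergent sites, and their distribution reaches farther to both sides.

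The spread of positions was wider at non-divergent promoters. A share of 42.1% of non-divergent summits lay from -200 to -51, against 69.3% of divergent summits. More than 300 bp upstream were 250 non-divergent sites (18.5%) and 5 divergent sites (0.557%). More than 200 bp downstream were 91 non-divergent sites (6.75%) and 2 divergent sites (0.223%). The rule itself narrows the divergent positions, because a summit between starts on both strands within 500 bp is close to at least 1 of them, so these shares are a description. With 2 or more TSSs within 500 bp, 174 of 247 non-divergent sites (70.4%) were upstream of the nearest one, against 963 of 1101 (87.5%) where there was a single TSS. Of the sites whose nearest TSS was the most upstream of its gene, 87.6% of 924 were upstream, and at internal TSSs 77.4% of 424 were. All 17 sites on chromosome 4 were upstream.

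Summits were also placed by what the annotation holds there. Upstream summits in intergenic DNA numbered 680 (50.4% of all non-divergent sites). Another 429 sites (31.8%) were in introns, of which 286 were upstream of 1 start of a gene but inside its longer transcripts. The 5' UTR held 167 sites (12.4%), of which 126 were downstream of the nearest start. A further 33 sites lay in the 3' UTR of a neighbouring gene and 33 in non-coding genes, and 6 were in coding exons. Among divergent sites 74.0% were intergenic and 8.47% intronic.

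The strongest non-divergent sites lay at genes of varied function. The 20 of highest signal all stood within the first 68 of the 5354 sites, and 19 of their summits were upstream of the TSS. The strongest site of the whole list was at CG14100 (FBgn0036889), on chr3L:19590388-19590851 in intergenic DNA, with its summit at -95. It had a signal of 7767 in the combined list, 5901 in replicate 3 and 1881 in replicate 1. The next was at ph-p (FBgn0004861), which encodes a subunit of Polycomb repressive complex 1, on chrX:2137112-2137602 with its summit at -475 from an internal start. Its signal was 7267 in the combined list, 5137 in replicate 3 and 2223 in replicate 1. ph-p had a further strong site at +420 from another of its starts, in its 5' UTR (signal 2801), which was the only downstream summit of the 20. Both replicates placed these sites high, since the lowest of their ranks was 74 in replicate 3 and 77 in replicate 1. The 20 were picked by a signal derived from both replicates, so high ranks in each follow in part from that choice.

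The other genes of the 20 were of varied kinds. px (plexus), a gene of wing vein patterning, had its summit at -205 in an intron, with a signal of 7034 (4827 in replicate 3 and 2226 in replicate 1). mRpL41, a protein of the mitochondrial ribosome, followed with 4439 at -137. Ugalt, a transporter of UDP-galactose, had 3809 at -36, the closest of the 20 to its start. Fkbp14, a peptidyl-prolyl isomerase, had 3586 at -135 with a GC content of 17.8% within 50 bp of the summit. The casein kinase gish had a signal of 2932, the engulfment receptor NimC4 had 2806, and for, a cGMP-dependent protein kinase, had 2614. elav, the RNA-binding protein of neurons, had 2426, and E(spl)m7-HLH, a repressor in the Notch pathway, had 2407. aay, a phosphoserine phosphatase, had 2403, RapGAP1, which inactivates the Rap1 GTPase, had 2393, and the integrin subunit scb had 2285. CG13921, CG1888, CG18549, RluA-1 and CG1142 complete the set, with signals of 5123, 4754, 2823, 2672 and 2636. For all 20 the signal was higher in replicate 3 than in replicate 1, and the log2 ratio ran between 0.61 and 1.65. This was so at most sites of the whole list, where the ratio had a median of 0.69 and a lower quartile of 0.23.

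**Figure D2:**
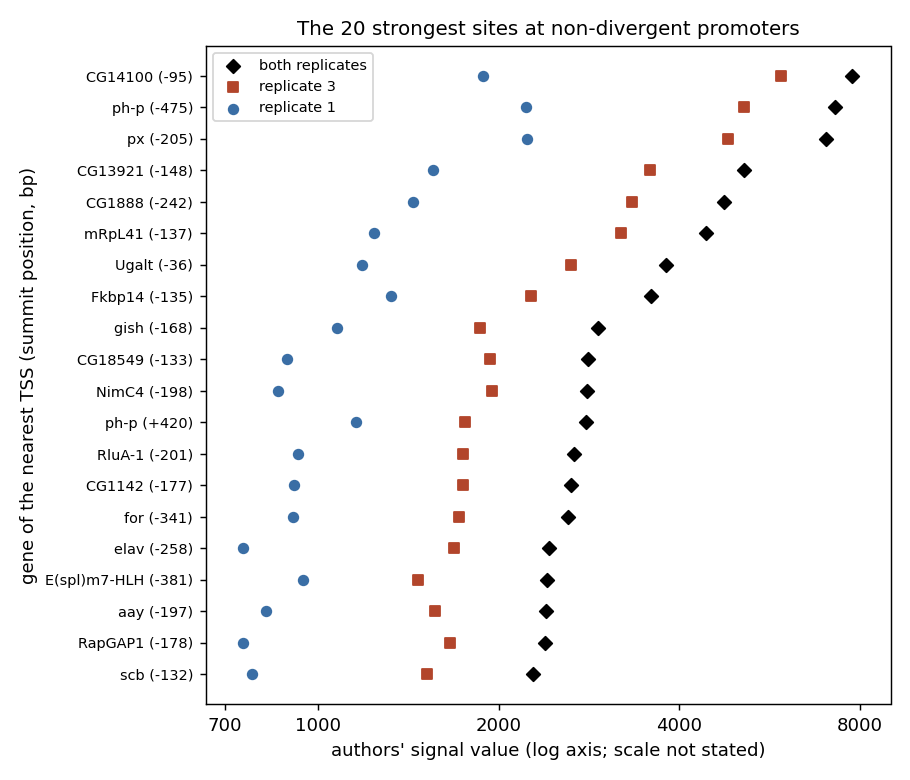
Authors' signal (x, log axis) of the 20 strongest non-divergent sites (rows, gene and summit position) in the combined list, in replicate 3 and in replicate 1. Replicate 3 lies above replicate 1 in every row, and CG14100 leads with 7767, 5901 and 1881.

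At the other end of the list were CaMKII, a calcium-dependent kinase, with a signal of 134.5 at -83, lute with 134.4 at -71, and Ddrgk1 with 134.4 at -335. Replicate 3 gave 80.6 for CaMKII and 51.6 for lute, and replicate 1 gave 42.0 and 82.4. For Ddrgk1 replicate 3 gave 90.3 and replicate 1 had no peak within 100 bp. The 500 bp limit fell between qvr at +500 (signal 141) and Fatp3 at -500 (signal 139), just inside, and Keap1 at +502 (signal 180) and capu at -502 (signal 173), just outside.

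A few genes carried several sites. Ptpmeg2, a protein tyrosine phosphatase with several starts, had 5, with signals between 203.9 at -82 and 837 at -206 from the nearest start. Rtnl1, a reticulon that shapes the endoplasmic reticulum, had 4, all upstream, with signals of 466, 1475, 542 and 1295. Moe (moesin), which links actin to the plasma membrane, had 4 weaker ones, the strongest with 257. spi (spitz), a ligand of the EGF receptor, and pan, the TCF factor of Wingless signalling, had 3 each, all upstream.

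The median signal of the class was below that of divergent sites and close to that of distant sites, by an amount that varied with the peaks used. It was 249 (quartiles 173 and 446) at non-divergent sites, 308 at divergent sites and 250.4 at sites over 500 bp from a TSS. Non-divergent minus divergent, the median log2 signals differed by -0.30, by -0.11 with the strongest peaks of replicate 1 alone, by -0.044 in the 2677 strongest sites and by -0.55 with a 200 bp window. Of the 1348 non-divergent sites, 320 (23.7%, interval 21.5 to 26.1%) were among the 1338 strongest of all IDR sites. Of the 897 divergent sites, 277 (30.9%, 27.9 to 34.0%) were. Non-divergent minus divergent, this is -7.14 percentage points (Fisher's exact test over sites, two-sided, adjusted p = 0.000416). With the strongest peaks of replicate 1 alone it was -2.50 points (Fisher's exact test, adjusted p = 0.184), so the call rested on replicate 3. A 200 bp window gave -16.7 points and a 1000 bp window -4.75. Within the 2677 strongest sites, and their own strongest 669, it was 2.58 points the other way (Fisher's exact test, adjusted p = 0.514). Sites are not replicates of a condition, and these tests set the classes of 1 list against each other.

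Signal varied with position inside the class and was highest in the middle of the upstream range. From -500 to -301 the median signal was 271 (n = 250), and 24.0% of these sites were among the 1338 strongest. Sites from -300 to -201 had a median signal of 331 (n = 240), and 35.8% of them were among the 1338. From -200 to -101 the median was 263 (n = 409), from -100 to -1 it was 198 (n = 238), from 0 to 100 it was 194 (n = 81), and beyond that downstream it was 211 (n = 130). When the class was divided into 4 parts of 337 sites by signal, the share of upstream summits was 88.1%, 87.5%, 83.4% and 78.3% from the strongest part to the weakest. The median position moved with it, being -189, -170, -135 and -109 bp. The distance to the TSS without its sign and the signal had a Spearman correlation of 0.164 across the 1348 sites. With log2 signal the Pearson correlation was 0.099. Sites in the same range from -150 to -51 bp still differed between classes, with a median signal of 229 at 385 non-divergent sites and 325 at 511 divergent sites.

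The full list of 30000 peaks called on both replicates together extends this order downward. The IDR list is its strongest 5354 peaks. Non-divergent peaks made up 25.6% of ranks 1 to 500 and 27.1% of ranks 5355 to 10000, and then 19.99% and 14.7% of the next 2 groups of 10000. Divergent peaks were 21.2% of the first group and 2.13% of the last. The upstream share of non-divergent peaks was 90.6% in ranks 1 to 500, 81.6% in ranks 2001 to 5354, 67.7% in ranks 5355 to 10000 and 49.8% in the last 10000. A total of 4731 non-divergent peaks lay below the IDR list.

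**Figure D3:**
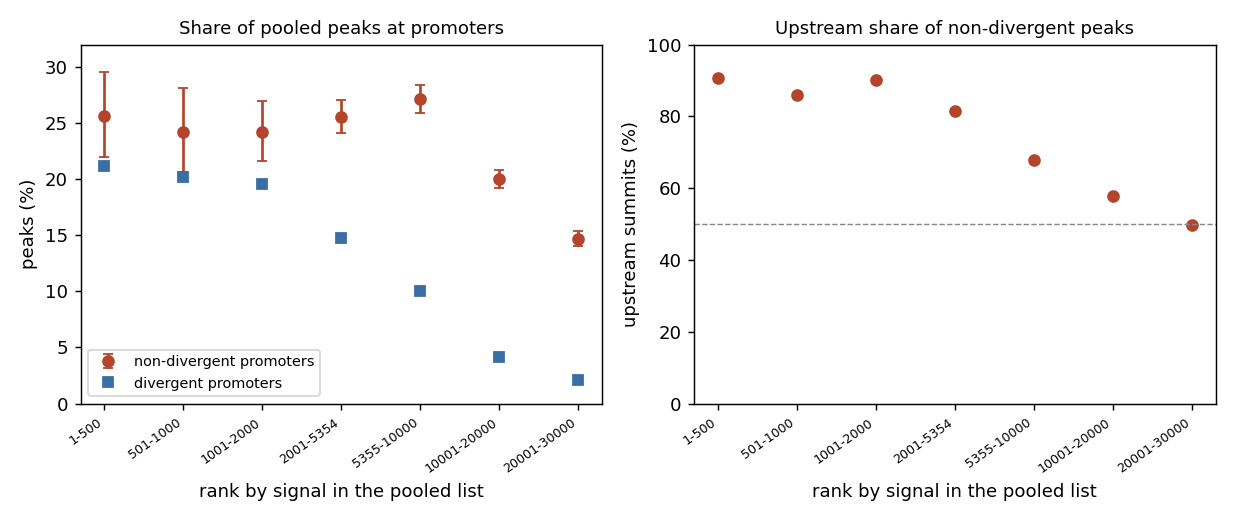
Left, share of pooled peaks (y, percent) at non-divergent promoters (circles, with 95% Wilson intervals) and at divergent promoters (squares) by rank (x). Right, share of the non-divergent peaks with an upstream summit, which is 90.6% in ranks 1 to 500 and 49.8% in ranks 20001 to 30000, with a dashed line at 50%.

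The sequence at the summits was poor in G and C. Within 50 bp of a non-divergent summit the GC content was 33.4% ± 9.72 (SD over 1348 sites), against 29.03% ± 8.44 at divergent summits and 33.1% ± 9.05 at distant ones. In flanks centred 350 bp away the mean was 42.8% for non-divergent and 47.5% for divergent sites. These flank means join the upstream and downstream sides, which were unlike at non-divergent sites. In 20 bp steps the mean there was 39.6% at -350 bp from the summit and 46.2% at 350 bp. The dip was lowest, at 32.2%, just upstream of the summit. It was less steep on the upstream side, where the mean at -250 bp was 37.8%, against 46.3% at 250 bp. Upstream summits averaged 32.8% (n = 1137) and downstream ones 36.6% (n = 211). From the strongest of the 4 signal parts to the weakest the mean was 30.1%, 32.5%, 34.1% and 37.0%. GC content and log2 signal had a Spearman correlation of -0.27 and a Pearson correlation of -0.27 across the 1348 sites, as a description. In the range from -150 to -51 the mean was 34.0% at non-divergent sites and 27.4% at divergent sites.

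The same dip was set against promoters where no peak was called. Around the 1575 non-divergent TSSs with a site, the GC content was lowest from -200 to -181, at 33.7%. Around the 8739 non-divergent TSSs with no pooled peak within 500 bp, it was lowest from -320 to -301, at 38.7%. The longest unbroken A/T run within 50 bp of a summit had a median of 10 bases at non-divergent sites and 12 bases at divergent sites. It was 7 bases in the flanks of non-divergent sites and 8 bases in promoter windows without a peak. Runs of 10 or more were present at 56.01% of non-divergent and 72.9% of divergent summits. A low GC content can also change how well DNA is sheared, amplified and mapped, and the part of this in the signal was not tested.

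**Figure D4:**
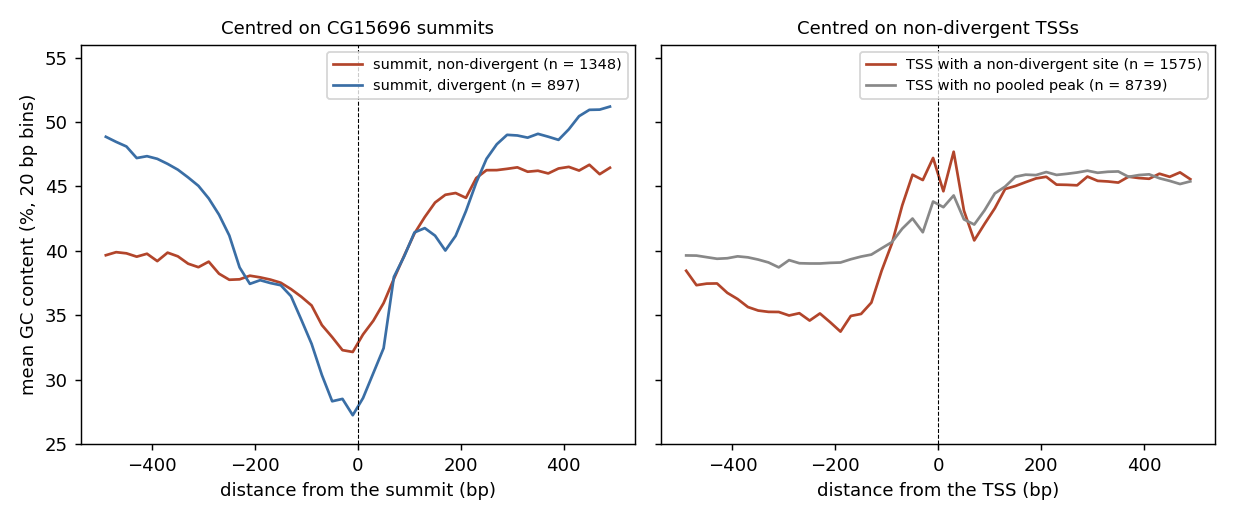
Mean GC content (y, percent, 20 bp steps) by distance from the summit for non-divergent and divergent sites, and by distance from the TSS for non-divergent promoters with a site and with no pooled peak (x, bp). It falls to 32.2% at non-divergent summits, and to 33.7% from -200 to -181 at TSSs with a site.

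Short motifs were counted within 50 bp of the summits, on both strands. TATAAA, the core of the TATA box, was in 306 non-divergent windows (22.7%, interval 20.5 to 25.01%) and in 286 divergent windows (31.9%). That put non-divergent windows at -9.18 percentage points from divergent ones (Fisher's exact test over sites, two-sided, adjusted p = 6.41e-06). In windows under 25% GC the share was 46.0% at non-divergent and 48.5% at divergent sites. From 25 to under 30% GC it was 25.5% against 30.9%, from 30 to under 35% it was 22.3% against 22.4%, and from 35% it was 9.06% against 10.98%. These differences within ranges of GC content were not tested. It was in 15.8% of windows of the same length in promoters without a peak. TAATTA, a core bound by many homeodomain proteins, was in 9.35% of non-divergent and 16.2% of divergent windows, against 5.45% of flanks and 7.1% of promoter windows without a peak. TAATTG was in 10.98% of non-divergent windows and in 9.96% of promoter windows without a peak. CAAGTG, the core preferred by NK-2 type homeodomains, was in 4.45% of non-divergent windows, against 7.64% of the flanks. The plain A/T hexamer TTTAAA was in 23.2% of non-divergent windows, 9.64% of flanks and 12.2% of promoter windows without a peak. For ATATTA these shares were 21.6%, 8.46% and 10.7%. The summit windows hold less G and C than the flanks, and only the TATAAA shares were split by GC content.

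Elements known from housekeeping promoters were in a small share of windows, but in a larger one than in the flanks. ATCGAT, the core of the site for the factor DREF, was in 79 non-divergent windows (5.86%) and 65 divergent windows (7.25%), a difference of -1.39 points that did not pass (Fisher's exact test, two-sided, adjusted p = 0.252). Within 100 bp of the summit it was -7.75 points (Fisher's exact test, adjusted p = 2.09e-06), and in the 2677 strongest sites it was 0.69 points, of the other sign. The share was 2.89% in the flanks of non-divergent sites and 3.9% in promoter windows without a peak. It was 2.67% in the strongest of 4 parts of the class by signal and 8.01% in the weakest. The longer DREF site TATCGATA, which holds ATCGAT, was in 2.23% of non-divergent windows, 0.482% of flanks and 0.624% of promoter windows without a peak. The motif 1 core GGTCACAC was in 15 of the 1348 windows (1.11%), 0.408% of flanks and 0.341% of promoter windows without a peak. GAGAG, bound by the GAGA factor, was in 8.68% of windows and 16.6% of flanks, and CAGGTA, bound by the early activator Zelda, was in 1.56% of windows and 3.12% of flanks. These counts take no account of the lower GC content of the summit windows.

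Motifs were also counted around the TSS. TATAAA at the usual place of a TATA box, from -45 to -15 on the gene strand, was at 50 of 1575 non-divergent TSSs with a site (3.17%), against 998 of 8739 without a pooled peak (11.4%). ATCGAT from -250 to 50 was at 19.1% of those with a site and 12.9% of those without a peak. GGTCACAC was at 7.75% with a site and 1.82% without a peak. The initiator core TCAGT was at 14.03% and 15.4%, and TAATTA at 16.7% and 17.5%. Over all 19607 protein-coding TSSs the 5 shares were 7.68% for TATAAA, 21.0% for ATCGAT, 6.72% for GGTCACAC, 13.1% for TCAGT and 18.9% for TAATTA. All 5 are counts of letters and were not tested.

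Among 13945 protein-coding genes, 1263 (9.06%) had a non-divergent site within 500 bp of a TSS of their own, and 1766 (12.7%) had a divergent one. Of the 10067 genes with no TSS on the opposite strand within 500 bp of theirs, 1150 (11.4%) had a non-divergent site and 13.0% had any IDR promoter site. For the 3878 genes that do have such a TSS, 43.1% had an IDR promoter site. The 1150 genes were longer, with a median length of 4973 bp, against 1958 bp for the 8755 without an IDR promoter site. More of them had several TSSs, 51.0% against 21.3%, and a gene with more TSSs has more windows in which a site counts. Their upstream neighbour was on the same strand for 54.1% and for 51.1% of the genes without a site. Another gene overlapped the start in 13.6% of genes with a site and 19.5% of those without.

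The gene groups differed in how often they had non-divergent sites. Of 86 genes of cytoplasmic ribosomal proteins, 25 (29.1%) had one, and 27 (31.4%) had a divergent one. RpL26 had a signal of 420.4 at +27, RpL23A had 409 at -100 and RpL11 had 319 at -150. All 25 were among the 52 ribosomal protein genes with no opposite TSS within 500 bp of theirs, for which the share over all genes was 11.4%. The replicates were unlike at RpL23A, with 104 in replicate 3 and 304 in replicate 1. Of 44 translation initiation factors 8 (18.2%) had a non-divergent site, beside 9.06% of all genes. They were led by eIF6 with 1433 at -113 and eIF3c with 809 at -22, followed by eIF2D with 359.7 at -85.

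Developmental regulators were also among them. Of 47 signalling genes, 13 (27.7%) had a non-divergent site and 4 (8.51%) a divergent one, beside 9.06% and 12.7% of all genes. aos (argos), a secreted inhibitor of the EGF receptor, had a signal of 1235 at -285, Stat92E, the transcription factor of JAK/STAT signalling, had 879.7 at +349, and spi had 727 at -190. At Stat92E the signal was 413 in replicate 3 and 499 in replicate 1. Of 25 genes of the Polycomb and trithorax groups, 7 (28%) had a non-divergent site and 6 (24.0%) a divergent one, beside the same shares of all genes. Beside ph-p these were led by Trl, which encodes the GAGA factor, with 356 at -331, and Psc, a subunit of Polycomb repressive complex 1, with 239.6 at -102. That site of Trl lay nearer to a TSS of CG42507. A second one, with a signal of 298 at +109, was in the 5' UTR of Trl with a TSS of Trl nearest.

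Of 87 genes on the list of homeodomain factors, 12 (13.8%) had a non-divergent site and 1 (1.15%) a divergent one. This list is almost wholly of genes with no opposite TSS nearby (85 of 87), for which the share over all genes was 11.4%. Its strongest sites were at Poxm, which has a paired domain but no homeodomain and is counted among the 12, with 1144 at -463, at tin (tinman), the NK-2 type factor of the heart, with 1120 at -206, and at PHDP with 640.03 at -328. tin had 805 in replicate 3 and 314 in replicate 1. Of 36 cell cycle and replication genes, 5 (13.9%) had a non-divergent site, beside 9.06% of all genes. They included Dp, the partner of E2F, with 736 at +412, CycD (cyclin D) with 472 at -476 and fzr, an activator of the anaphase-promoting complex, with 218 at -115.

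In several other groups of housekeeping genes more members had a divergent site than a non-divergent one, though in each of them most had no divergent site. Over all genes the shares were 12.7% divergent and 9.06% non-divergent. Of 73 mitochondrial ribosomal proteins 3 (4.11%) had a non-divergent and 27 (37.0%) a divergent site. The 3 were mRpL41, mRpL19 with a signal of 315 and mRpL4 with 247. Proteasome subunits had 1 of 48, Rpn11, a deubiquitinase of the lid, with 358 at -248, against 9 with a divergent site. Respiratory chain and ATP synthase genes had 3 of 86, namely ATPsynC with 179.7, ND-49 with 138.5 and RFeSP with 137, against 18. Aminoacyl-tRNA synthetases had 2 of 34, AspRS-m with 196 and beta-PheRS with 169.7, against 12. Mediator, RNA polymerase II and TBP-associated factors had 5 of 53 (9.43%), close to the share of all genes, led by Polr2F with 373, Taf4 with 347 and MED4 with 302, against 19. Spliceosome proteins had 0 of 33 against 12, and the nuclear pore had 0 of 21 against 7. Autophagy genes had 2 of 20, also close to that share, Atg13 with 186 and Atg8a with 161, against 9.

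Chaperones had 4 of 36 (11.1%), beside 9.06% of all genes, against 6 with a divergent site. The 4 were led by the small heat shock protein Hsp27 with 520.04, Hsp83, the fly HSP90, with 206 and the mitochondrial chaperonin Hsp60A with 191. Rab GTPases had 2 of 31 (6.45%), beside the same share of all genes, against 4 with a divergent site. The 2 were Rab5 of early endosomes with 679 at -252 and Rab11 of recycling endosomes with 296 at -174. Groups used mostly in differentiated tissue had few sites of either kind. Cpr cuticle genes had 1 of 70, Cpr65Av with 152 at -409, chemoreceptors had 1 of 179, Or88a with 216 at -496, and digestive serine proteases had 0 of 27. None of these 3 lists had a divergent site. The counts are descriptions beside the shares of all genes, since the lists were drawn up with earlier results known, and the lists differ in how many of their genes have an opposite TSS nearby. Among all genes without one, 11.4% had a non-divergent site. The share was higher for signalling genes (11 of 36) and for Polycomb and trithorax genes (7 of 14). Of the housekeeping groups, mitochondrial ribosomal proteins had 3 of 20, aminoacyl-tRNA synthetases 2 of 13 and autophagy genes 1 of 8. Mediator, RNA polymerase II and TBP-associated factors had 4 of 19. Respiratory chain genes had 2 of 46, proteasome genes 1 of 24, spliceosome genes 0 of 11 and nuclear pore genes 0 of 7. Most of these housekeeping groups hold few genes without an opposite TSS. Counts this small cannot place such a group above or below 11.4%. Differences from that share were not tested for any list.

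**Figure D5:**
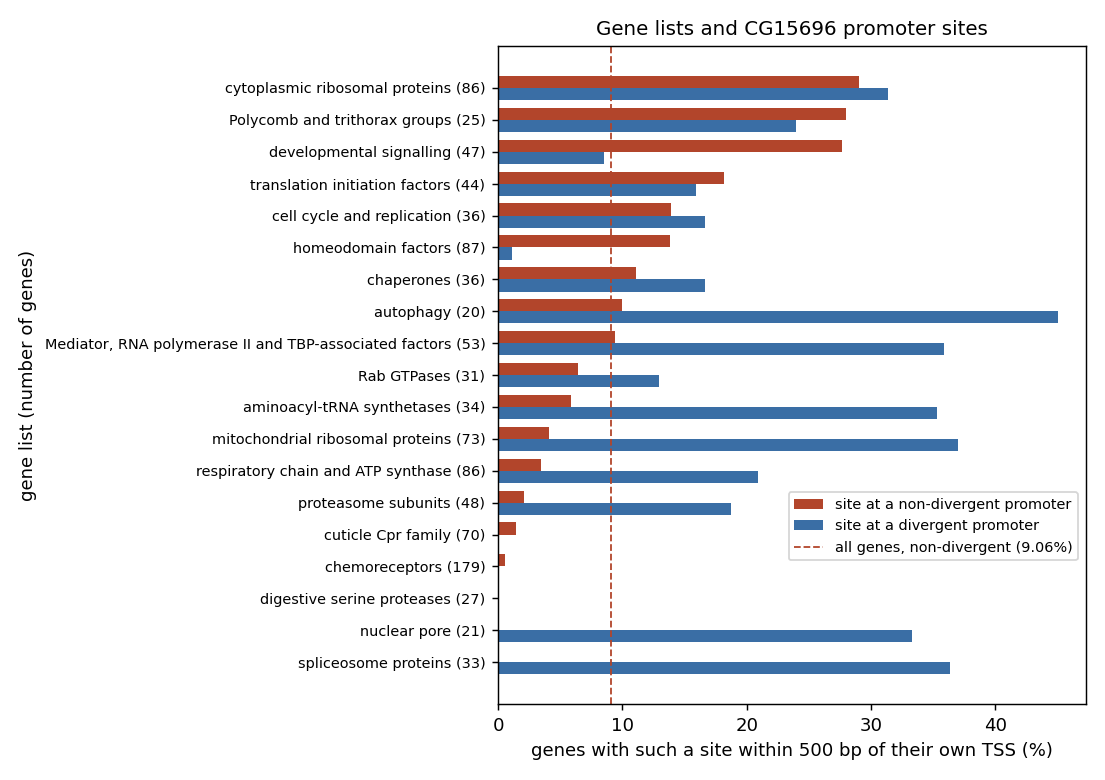
Share of the genes in each of 19 lists (rows, number of genes in brackets) with a CG15696 site within 500 bp of a TSS of their own (x, percent), at a non-divergent promoter (upper bar) and at a divergent promoter (lower bar). The dashed line is the non-divergent share of all genes, 9.06%, and cytoplasmic ribosomal proteins reach 29.1%.

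The replicates shared most of these sites but leaned differently by class. The IDR list was derived from these same replicates by how well their ranking repeats. The shares of sites found in both were thus set in part by that choice, and are a description. A summit within 100 bp was present in the full lists of both replicates for 1264 of the 1348 sites (93.8%). Among the strongest 5354 peaks of each replicate it was present in both for 936 (69.4%), against 72.7% of divergent sites, 74.1% of distant sites and 72.7% of all IDR sites. For the full lists the shares were 91.9% of divergent and 95.2% of distant sites. Among non-divergent sites the share in both top lists was 98.2% in the strongest of the 4 signal parts and 22.8% in the weakest. The replicates' signals at the 1264 matched sites had a Spearman correlation of 0.702, as a description. The log2 ratio of replicate 3 to replicate 1 had a median of 0.78 at non-divergent sites, 1.13 at divergent sites and 0.55 at distant sites, against 0.69 over all matched sites. Within the class it was 0.81 for upstream and 0.59 for downstream summits. Of the genes named from the lists, Hsp83 had no peak within 100 bp in replicate 3, and AspRS-m, Rab5, Rab11, Or88a and PHDP had none in replicate 1.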

How the data were processed

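The deposited files are peak lists on dm6, per the labels. Per the notes deposited with the files, the authors called peaks on each replicate and on both together, against the same 1 control alignment, and derived the IDR list from them. The authors' signal value per peak has no stated scale. The deposited −log10 q value was not used. What peak caller and IDR threshold were used, and the depth, is not given in the sources used here. No column of per-sample values was left unmapped (0 columns).

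TSSs of protein-coding transcripts came from Ensembl release 115 and sequence from RefSeq Release 6. Sites were ranked by signal, and replicates were matched by summits within 100 bp. GC content and 14 motifs were counted in windows of 101 bases around the summit, with flanks centred 350 bp away and, for promoters without a peak, 10 windows per TSS. Non-divergent and divergent shares were set against each other with two-sided Fisher's exact tests (Benjamini-Hochberg over 4, threshold 0.05). Shares carry 95% Wilson intervals. Sites were classed by code checked on simulated summits (Python 3.11.15, pandas 2.3.3, scipy 1.17.1).

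The members, the 19 gene lists and the tests were chosen with earlier results of these data known. On those lists 5 symbols (lat, calypso, cut, otd and Dl) had no match. Named genes are those nearest to the 20 strongest and 3 weakest sites, up to 3 per list with the strongest site, and 2 sites on either side of the 500 bp limit. Other genes, such as those with several sites, were named after their values were seen. No sequence from arm 2R is printed.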

Additional observations from a re-analysis of the deposited data

How the results depend on the processing

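No paired analysis was possible because the labels give 1 group. Of 94 alternatives to 11 results, 57 were counted as unchanged, 26 as moved and 7 as turned in sign. A further 3 newly passed the threshold and 1 no longer passed it. The unchanged ones include those with RefSeq TSSs, which are nearly the same TSSs and could hardly differ. For the tested shares, unchanged meant the same direction and side of the threshold. For the other results it meant a move no larger than a spread. That spread was the SD of the 2 single-replicate values, and for the replicate ratio it came from intervals of the medians over sites. It was 0.0086 points for the GC difference, so small moves of that result were counted as changes. With the strongest 5354 peaks of a single replicate, the non-divergent share was 25.4 to 25.6%, against 25.2%. The upstream share was 79.6 to 86.1%, the median position -154 to -138 bp, and the median log2 signal difference from divergent sites -0.38 to -0.11, against -0.30. The GC difference was 3.88 to 3.90 points, against 4.40. The upstream share difference was -3.06 points without replicate 3 and 1.16 without replicate 1, against -1.61 (Fisher's exact test, adjusted p = 0.432 for the turned one). The difference in the share among the 1338 strongest sites was -2.50 without replicate 3 and -8.14 without replicate 1. It was -16.7 points with a 200 bp window and -4.75 with a 1000 bp window, past the threshold in both.

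In the 2677 strongest sites the non-divergent share was 24.1%, the median position -181 bp, the log2 signal difference -0.044, the GC content 31.1% and the GC difference 4.04 points. There the difference in upstream share was 1.83 points, in the share among the strongest 669 of them 2.58 and in the ATCGAT share 0.69, all turned in sign and none past the threshold. A 200 bp window gave a non-divergent share of 21.1%, a median position of -109.5 bp, a log2 signal difference of -0.55, a GC difference of 4.88, a replicate ratio difference of -0.23 against -0.35, and differences of 4.001 points in upstream share and 1.42 in ATCGAT share. A 1000 bp window gave a non-divergent share of 30.1%, an upstream share of 76.1% and a GC difference of 3.61. With it the difference in upstream share was -7.49 points (Fisher's exact test, adjusted p = 6.52e-06). That in ATCGAT share was -2.69 points (Fisher's exact test, adjusted p = 0.00568), and both then passed. The window also sets the classes, from the same TSSs that decide whether a summit is upstream.

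With 1 TSS per gene the non-divergent share was 19.3%, the GC difference 4.25 and the upstream share difference 0.40 points. With 1 site per 500 bp, an alternative added after seeing the data, the GC difference was 4.37. GC windows of 25 and 100 bp to either side gave differences of 4.91 and 3.27, and the wider one a mean of 34.96%. With motif windows of 100 bp to either side the ATCGAT difference was -7.75 points (Fisher's exact test, adjusted p = 2.09e-06). The causes were not tested. The difference in TATAAA share kept its sign and passed under every alternative run. None of these alternatives compared sites of like GC content. Within each range of GC content given above, the TATAAA shares of the classes lay closer together, which was not tested. RefSeq TSSs moved nothing, since 19253 of their 19254 positions are those of Ensembl. The depth is unknown, so what it limits could not be given.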
